A study of Mus musculus with 3 samples.

Results

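The 10 genes described here encode the 3 TGF-β ligands (*Tgfb1*, *Tgfb2*, *Tgfb3*), the activin subunit βA (*Inhba*), 3 latent TGF-β binding proteins (*Ltbp1*, *Ltbp2*, *Ltbp3*) and 3 TGF-β receptors (*Tgfbr1*, *Tgfbr2*, *Tgfbr3*). They were chosen by name among the 32285 genes of the count matrices, and all 10 were found. Their levels were read in single cells of mouse bone callus, the repair tissue that forms around a fracture. It was taken 7, 10 and 14 days after femoral fracture in mice of a C57BL/6 background. By the methods of the paper, the cut femur was held with an intramedullary steel pin. The mice were given isoflurane and buprenorphine for the operation, and both sexes were used. Each day was 1 droplet library with no replicate, made from live cells that the protocol sorted as CD45-, CD31- and TER119- after muscle and marrow were removed and the callus was digested with collagenase. The number and age of the animals behind each library are not given in the sources used here. Because each day was 1 library, no difference was tested, and day, animal, depth and library cannot be told apart.

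TGF-β is made as a latent complex. Each ligand is cut from its own propeptide, stays bound to it, and is commonly linked through the propeptide to a latent TGF-β binding protein that anchors the complex to fibrillin in the matrix. The ligand acts only once it is freed, for example when integrins pull on the propeptide, and it then binds the type II receptor (*Tgfbr2*), which recruits the type I receptor (*Tgfbr1*) and signals through Smad2 and Smad3, while betaglycan (*Tgfbr3*) presents ligand, TGF-β2 above all. Activin A, a dimer of the *Inhba* product, uses the same Smad proteins through other receptors. In bone, TGF-β is stored in the matrix, and it is known to favour early chondrocyte differentiation and to hold back hypertrophy.

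A sequence feature that separates the ligands is the Arg-Gly-Asp triplet of the propeptide, which αv integrins bind. In the GENCODE M21 reading frames, *Tgfb1* (390 codons) and *Tgfb3* (412 codons) each hold 1 such triplet by the standard code, and *Tgfb2* (414 codons) holds 0. The 2 stretches below are shown because the mix of ligands with and without this triplet differed between cell groups. They run 5′ to 3′ on the coding strand, with 15 codons on each side and the 3 codons of the triplet in capitals.
*Tgfb1*, codons 244 to 246, GRCm38 chr7:25696968-25697195 (+), exons 4 and 5 of 7, joined across the intron: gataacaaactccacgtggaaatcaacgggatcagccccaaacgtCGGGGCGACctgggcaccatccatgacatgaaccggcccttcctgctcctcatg
*Tgfb3*, codons 261 to 263, GRCm38 chr12:86062120-86063839 (-), exons 4 and 5 of 7, joined across the intron: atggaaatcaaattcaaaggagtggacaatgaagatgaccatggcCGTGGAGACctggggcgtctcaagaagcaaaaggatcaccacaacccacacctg

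The cells were grouped by markers that are not among the 10 genes. A cell barcode within the limits of the study (500 to 5000 genes, at most 10% mitochondrial and 5% hemoglobin UMIs) and with no UMI of *Ptprc*, the gene of CD45, was called high for a marker when that marker reached a set level in it with at least 3 UMIs. A UMI is a unique molecular identifier, 1 for each captured mRNA molecule, and CPM are the UMIs of a gene for every 1000000 UMIs in all. The levels were 2000 CPM for *Aspn* and for *Rgs5*, 1500 CPM for *Cnmd*, 5000 CPM for *Col10a1* and 500 CPM for *Ifitm5*, and a cell entered a group only when it was high for 1 marker alone. The Aspn-high group, named for the matrix protein asporin, held 1286 cells at day 10 and 3019 at day 14. The Cnmd-high group (chondromodulin, of cartilage) held 2589 and 1546 cells, the Col10a1-high group (type X collagen, of hypertrophic cartilage) 481 and 1413, the Ifitm5-high group (a membrane protein of osteoblasts) 115 and 350, and the Rgs5-high group (a pericyte gene) 70 and 179. At day 10, every gene of the marker list of each group was at 5 CPM or more in its own group, 5 of 5 *Postn*+ progenitor genes, 6 of 6 chondrocyte genes, 5 of 5 hypertrophic genes, 6 of 6 osteoblast genes and 6 of 6 pericyte genes. Each list holds the marker that defined its group, and 5 CPM does not tell the groups apart. The *Postn*+ progenitor list was at 5 of 5 in every group, and the chondrocyte list at 6 of 6 in Col10a1-high cells too. Summed, the *Postn*+ list was at 13963 CPM in Aspn-high cells and at 268 to 2918 CPM in the other groups. The hypertrophic list did not separate Col10a1-high from Ifitm5-high cells, at a summed 67773 and 67465 CPM, because *Ibsp* and *Mmp13* are high in both. Cells near a threshold were common, with 43.8% of Aspn-high and 38.9% of Cnmd-high cells of day 10 under 2 times their own threshold.

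The libraries held 7017, 6593 and 9853 cells within the limits, with a median of 5056, 17370 and 15802 UMIs per cell at day 7, day 10 and day 14. The day 7 library went against its sort, since 6570 of its cells (93.6%) had a UMI of *Ptprc*, against 6 cells at day 10 and 173 cells at day 14. Its skeletal groups held 13 Aspn-high, 56 Cnmd-high, 7 Col10a1-high, 6 Ifitm5-high and 0 Rgs5-high cells, so they are given as values only, and no comparison between groups below uses that library unless day 7 is named. Pairs of libraries shared 13 to 26 cell barcodes within the limits. Levels below were obtained by summing UMIs over a group within 1 library and are given as CPM with exact Poisson 95% intervals. Ratios carry exact binomial intervals, and shares of cells carry Clopper-Pearson intervals. All of them cover counting error only and not the spread between animals. A UMI stands for 1 molecule whatever the length of its transcript. A ratio of levels cannot tell more mRNA per cell from fewer UMIs of other genes in the same cells.

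The 10 genes differed widely between the skeletal groups. Among the 5 groups, Aspn-high cells had the highest levels of *Tgfb3*, *Inhba* and the 3 latency genes on both days, while Col10a1-high and Ifitm5-high cells had the highest *Tgfb1*. *Tgfb2* varied least among the ligands. At day 10, 4 of the 10 genes were at least 2-fold apart in Cnmd-high from Aspn-high cells, 7 in Col10a1-high, 8 in Ifitm5-high and 6 in Rgs5-high cells. Over all genes that passed the same filter (20 UMIs in both groups together and 5 CPM in one of them), the shares at least 2-fold apart were 22%, 28.6%, 25.5% and 25.5%. At day 14 the counts were 6, 6, 8 and 6 of 10, beside 22.5%, 27.9%, 25% and 25.2% of all genes. Of the genes that were apart, *Tgfb1* alone was higher than in Aspn-high cells, in Col10a1-high and Ifitm5-high cells at both days, and every other one was lower. The median log2 ratio of the 10 genes at day 10 was -0.996 in Cnmd-high, -1.15 in Col10a1-high, -1.77 in Ifitm5-high and -1.53 in Rgs5-high cells, beside -0.33, -0.22, -0.35 and 0.03 over all genes.

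**Figure D1:**
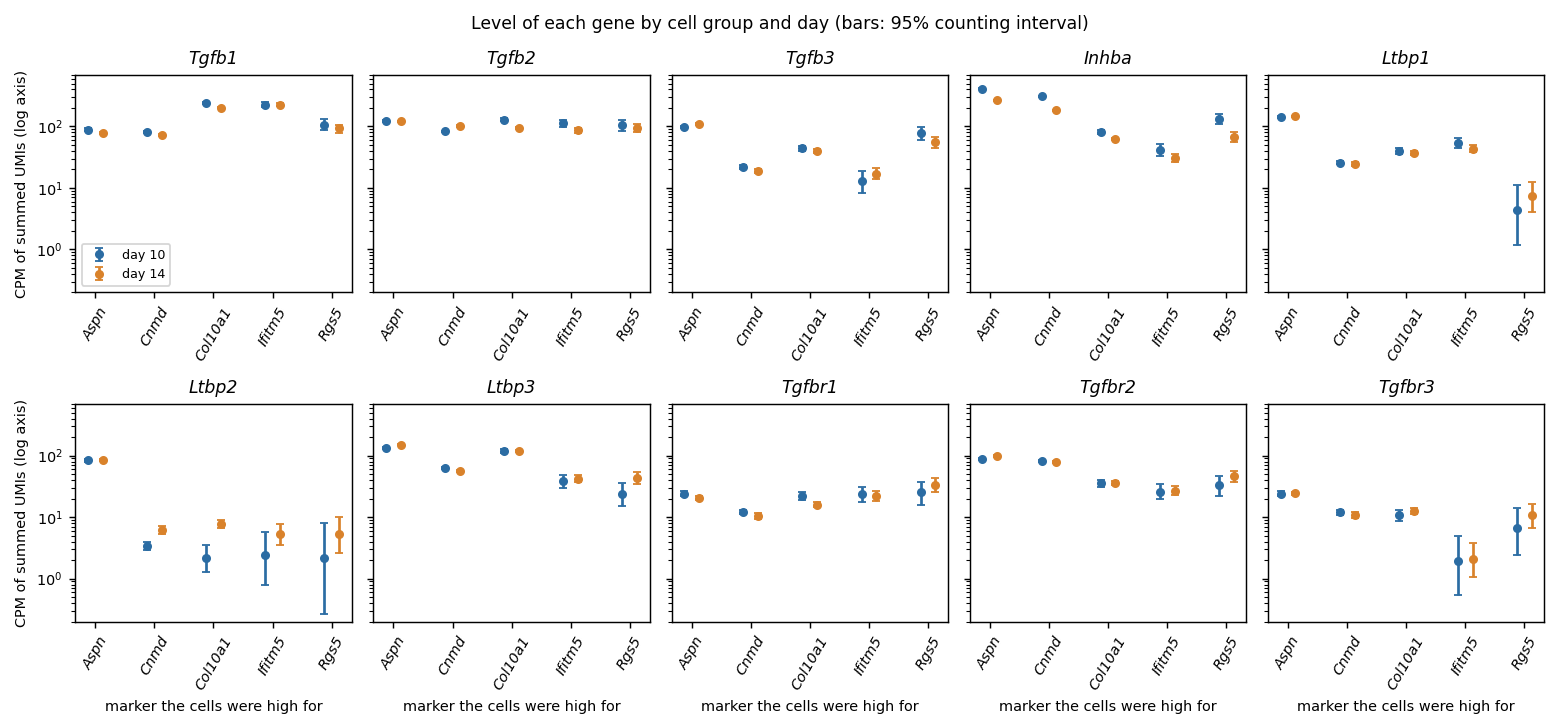
Level of each of the 10 genes (CPM, log axis) in the 5 marker-high groups at day 10 and day 14, with exact Poisson 95% intervals as bars. *Ltbp2* stands near 84 CPM in Aspn-high cells and under 8 CPM in the other 4 groups at both days, and *Tgfb1* stands above 200 CPM in Col10a1-high and Ifitm5-high cells.

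*Tgfb1*, the main TGF-β of bone matrix (chromosome 7, 25687002 to 25705077, GRCm38, plus strand), was highest in the hypertrophic and osteoblast groups. At day 10 it stood at 88.8 CPM (95% CI, 84.6 to 93.1) in Aspn-high, 82.1 CPM in Cnmd-high, 242 CPM (95% CI, 232 to 253) in Col10a1-high, 228 CPM in Ifitm5-high and 107 CPM in Rgs5-high cells. At day 14 the same groups held 79.0, 73.7, 202, 225 and 92.7 CPM. Col10a1-high and Ifitm5-high cells were thus the high groups on both days, and their intervals did not overlap those of the other 3 groups. *Tgfb1* was 2.73-fold higher in Col10a1-high than in Aspn-high cells at day 10 (log2 ratio 1.45; 95% CI, 1.35 to 1.54) and 2.56-fold higher at day 14. Against Cnmd-high cells the ratios were 2.95-fold and 2.75-fold. Rgs5-high, Aspn-high and Cnmd-high cells followed in that order with overlapping intervals between neighbours. Once every cell was thinned to 2000 UMIs, a UMI of *Tgfb1* was present in 36.3% of Col10a1-high and 41.2% of Ifitm5-high cells at day 10, against 17.3% of Aspn-high and 14.3% of Cnmd-high cells. At their own depth these shares were 90.0%, 93.0%, 63.6% and 65.2%.

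*Tgfb2* (chromosome 1, 186622792 to 186705989, minus strand) covered the narrowest range of the ligands. At day 10 it stood at 122 CPM in Aspn-high, 83.3 CPM in Cnmd-high, 129 CPM in Col10a1-high, 114 CPM in Ifitm5-high and 104 CPM in Rgs5-high cells, and at day 14 at 121, 101, 95.4, 86.4 and 94.9 CPM. The Col10a1-high, Aspn-high, Ifitm5-high and Rgs5-high levels of day 10 overlapped neighbour by neighbour, and Cnmd-high cells were below Aspn-high cells by a log2 ratio of -0.55 (95% CI, -0.63 to -0.48). No group was 2-fold apart from Aspn-high cells on either day. The highest *Tgfb2* was not in a named group but in the cells high for none of the 5 markers, at 204 CPM (95% CI, 198 to 209) in 1742 cells of day 10 and 172 CPM in 2881 cells of day 14. Those cells held 39.9% and 37.5% of all *Tgfb2* UMIs of cells without *Ptprc*, with 24.2% and 27.1% of all UMIs, and they were rich in *Ibsp*, *Col1a1* and *Col2a1* alike.

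*Tgfb3* (chromosome 12, 86056745 to 86079041, minus strand) had its high end in Aspn-high cells, with 97.3 CPM at day 10 (95% CI, 92.9 to 102) and 109 CPM at day 14 (95% CI, 106 to 112). Rgs5-high cells followed at 77.8 and 55.2 CPM, Col10a1-high cells at 43.8 and 40.0 CPM, and Cnmd-high cells at 21.9 and 18.7 CPM. Ifitm5-high cells held 12.7 CPM on 26 UMIs at day 10 and 17.1 CPM on 89 UMIs at day 14. The order was the same on both days. Aspn-high and Rgs5-high intervals overlapped at day 10 and not at day 14. *Tgfb3* was 4.43-fold lower in Cnmd-high than in Aspn-high cells at day 10 (log2 ratio -2.15; 95% CI, -2.26 to -2.04) and 5.84-fold lower at day 14. It was 2.22-fold lower in Col10a1-high and 7.63-fold lower in Ifitm5-high cells of day 10. Aspn-high cells held 38.2% of the *Tgfb3* UMIs of day 10 and 54.4% of those of day 14, with 17.1% and 28.0% of all UMIs.

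The mix of the 3 ligands, which does not move with the scaling, therefore differed by group. In Aspn-high cells of day 10, *Tgfb1* made up 28.8%, *Tgfb2* 39.6% and *Tgfb3* 31.6% of the summed ligand UMIs, and at day 14 they made up 25.6%, 39.1% and 35.3%. In Cnmd-high cells *Tgfb1* and *Tgfb2* were nearly even at day 10, at 43.8% and 44.5%, and *Tgfb2* led at day 14 with 52.2%, while *Tgfb3* was 11.7% and 9.7%. In Col10a1-high cells *Tgfb1* took 58.4% and 59.9%, and in Ifitm5-high cells 64.3% and 68.5%, with *Tgfb3* at 3.6% and 5.2% in the latter. *Tgfb2*, the ligand with no Arg-Gly-Asp codons, thus ranged from 26.3% of ligand UMIs in Ifitm5-high cells of day 14 to 52.2% in Cnmd-high cells of the same day. Rgs5-high cells held the 3 ligands at 37.1%, 36.0% and 26.9% at day 10. Summed over the 3 ligands, the level among the 5 groups was highest in Col10a1-high cells, at 415 and 338 CPM on the 2 days, and lowest in Cnmd-high cells, at 187 and 193 CPM. Ifitm5-high cells held 354 and 328 CPM, and their interval overlapped that of Col10a1-high cells at day 14. Aspn-high cells held 308 and 309 CPM, and cells high for none of the 5 markers 400.4 and 363 CPM.

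**Figure D2:**
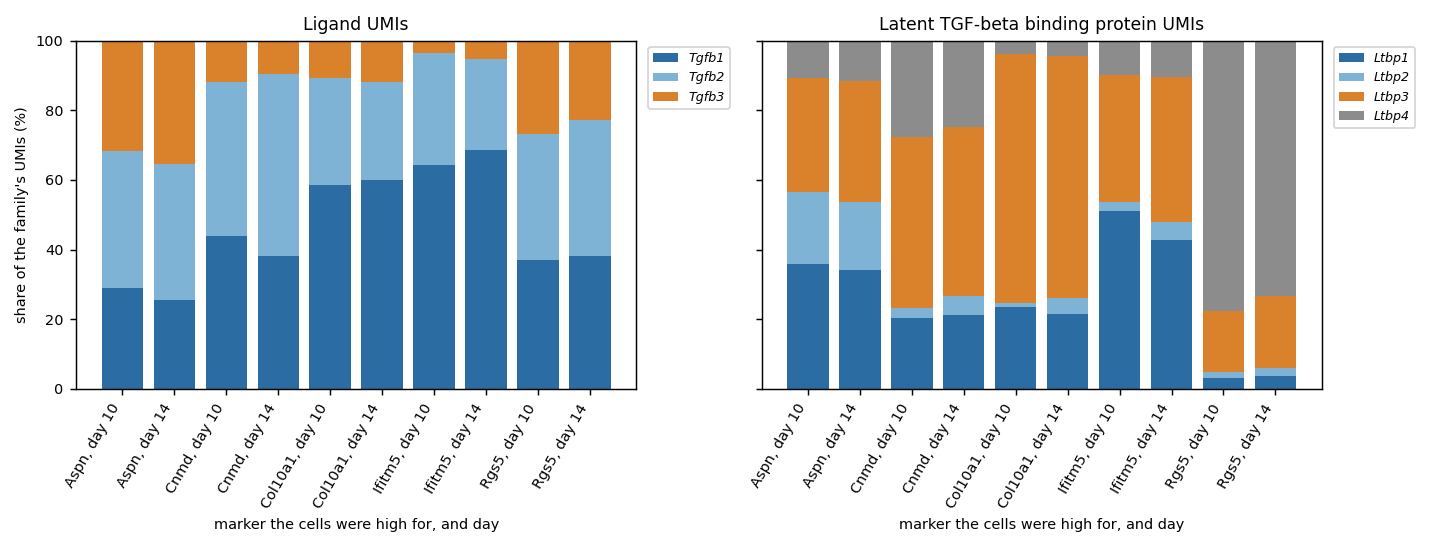
Make-up of the TGF-β ligands (share of *Tgfb1*, *Tgfb2* and *Tgfb3* among their summed UMIs, percent) and of the latency genes (*Ltbp1*, *Ltbp2*, *Ltbp3* and *Ltbp4*, percent) in each group and day, as stacked bars from 0 to 100%. *Tgfb1* grows from 28.8% in Aspn-high to 64.3% in Ifitm5-high cells at day 10, and *Ltbp4* fills 77.6% of the bar of Rgs5-high cells.

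*Inhba* (chromosome 13, 16011851 to 16031621, plus strand) was lowest in Ifitm5-high and then Col10a1-high cells, which had the highest *Tgfb1* among the 5 groups. At day 10 it stood at 409 CPM (95% CI, 400.0 to 418) in Aspn-high, 309 CPM in Cnmd-high, 132 CPM in Rgs5-high, 82.2 CPM in Col10a1-high and 41.2 CPM in Ifitm5-high cells. At day 14 the same groups held 269, 182, 67.0, 62.5 and 31.1 CPM. All neighbours in this order were apart by their intervals, except Rgs5-high and Col10a1-high cells at day 14. *Inhba* was 4.97-fold lower in Col10a1-high than in Aspn-high cells at day 10 (log2 ratio -2.31; 95% CI, -2.43 to -2.20) and 9.93-fold lower in Ifitm5-high cells (log2 ratio -3.31). With the marker thresholds halved, the last value was -2.45. *Inhba* UMIs were bunched in a part of the cells. In thinned Cnmd-high cells of day 10, 26.0% had a UMI where an even spread of the same UMIs would give 43.4%, and cells with a UMI held 2.19 on average. In Aspn-high cells the values were 38.3%, 53.5% and 2.00. *Tgfb1* was closer to even, at 14.3% of Cnmd-high cells where an even spread would give 15.1%.

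Beside *Inhba*, its secreted antagonist follistatin (*Fst*) was at 89.9 CPM in Aspn-high, 47.2 CPM in Cnmd-high, 24.9 CPM in Col10a1-high and 10.8 CPM in Ifitm5-high cells of day 10. The pseudoreceptor gene *Bambi*, whose product dampens TGF-β and activin receptors, ran the other way in the same groups, at 50.1, 125, 246 and 365 CPM, and at 32.7, 114, 283 and 313 CPM at day 14. Rgs5-high cells of day 10 departed from this. There *Bambi* was at least 2-fold lower than in Aspn-high cells, and *Inhba* was lower too, at 132 against 409 CPM. Of the 13 genes of the activin side and co-receptors, 8 passed the filter in Cnmd-high against Aspn-high cells of day 10, of which 1 was at least 2-fold higher and 4 lower. In Col10a1-high cells 1 was higher and 3 lower of 8, in Ifitm5-high cells 1 and 5 of 8, and in Rgs5-high cells 3 and 1 of 9. At day 14 the higher and lower counts were 1 and 4 of 8, 1 and 4 of 8, 2 and 5 of 9, and 2 and 2 of 8. Among all genes, 22%, 28.6%, 25.5% and 25.5% were at least 2-fold apart in these groups at day 10. The day 14 shares were 22.5%, 27.9%, 25% and 25.2%. In Rgs5-high cells of day 10 the higher genes included *Eng*, which encodes endoglin, at 74.6 against 32.3 CPM.

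The latency genes had their high end in Aspn-high cells. *Ltbp1* (chromosome 17, 75005568 to 75392512, plus strand), whose product binds all 3 ligands, stood at 143 CPM (95% CI, 138 to 149) in Aspn-high cells at day 10 and 146 CPM at day 14. Ifitm5-high cells held 53.4 and 43.2 CPM, Col10a1-high cells 39.3 and 37.1 CPM, and Cnmd-high cells 25.9 and 24.7 CPM. Rgs5-high cells had 4 UMIs at day 10 (4.39 CPM) and 14 at day 14 (7.51 CPM). *Ltbp1* was 5.54-fold lower in Cnmd-high than in Aspn-high cells at day 10 and 5.92-fold lower at day 14. In Rgs5-high cells of day 10 it was 32.7-fold lower (log2 ratio -5.03; 95% CI, -6.91 to -3.67).

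*Ltbp2* (chromosome 12, 84783212 to 84876532, minus strand), whose product binds fibrillin but not latent TGF-β, gave the largest contrast of the 10 genes at day 10. In Aspn-high cells it stood at 83.9 CPM at day 10 (95% CI, 79.8 to 88.0) and 84.4 CPM at day 14 (95% CI, 81.7 to 87.2). The other 4 groups lay between 2.19 and 3.42 CPM at day 10 and between 5.36 and 7.74 CPM at day 14, with no overlap with Aspn-high cells. At day 10 *Ltbp2* was 24.6-fold lower in Cnmd-high (log2 ratio -4.62; 95% CI, -4.85 to -4.39) and 38.1-fold lower in Col10a1-high cells (log2 ratio -5.25; 95% CI, -6.01 to -4.59). The Ifitm5-high and Rgs5-high values of day 10 rested on 5 and 2 UMIs. In thinned cells a UMI of *Ltbp2* was present in 13.3% of Aspn-high cells of day 10 and 14.2% of day 14, in at most 1.70% of the cells of any other marker-high group on these days, and in 0.129% of the Ptprc-positive cells of day 7. Aspn-high cells held 48.4% and 53.3% of the *Ltbp2* UMIs of cells without *Ptprc*. Most of the rest lay in cells high for no marker, at 54.4 and 64.7 CPM, where *Aspn* itself was at 506 and 531 CPM.

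*Ltbp3* (chromosome 19, 5740904 to 5758532, plus strand), whose product also binds latent ligand, was the latency gene that Aspn-high and Col10a1-high cells shared. It stood at 132 CPM in Aspn-high and 119.9 CPM in Col10a1-high cells at day 10 and at 150.2 and 119.6 CPM at day 14. The log2 ratio between these groups was -0.13 (95% CI, -0.24 to -0.03) at day 10, which turned to 0.09 under median-of-ratios scaling, and -0.33 at day 14. Cnmd-high cells held 62.2 and 56.8 CPM, Ifitm5-high cells 38.2 and 42.2 CPM, and Rgs5-high cells 24.1 and 44.0 CPM. *Ltbp3* was 2.11-fold lower in Cnmd-high than in Aspn-high cells at day 10 (log2 ratio -1.08), which became -0.73 with TMM scaling. The 3 latency genes together came to 359 and 381 CPM in Aspn-high cells, and to 91.6 and 87.7 CPM in Cnmd-high cells.

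Within the latency genes the leading member at day 10 changed from group to group. Aspn-high cells of day 10 divided their UMIs into 35.7% *Ltbp1*, 20.9% *Ltbp2*, 32.8% *Ltbp3* and 10.7% *Ltbp4*, the remaining family member, which was not among the 10 genes. *Ltbp3* led in Cnmd-high cells with 49.2% and in Col10a1-high cells with 71.5%, and *Ltbp1* led in Ifitm5-high cells with 51.2%. *Ltbp4* led in Rgs5-high cells with 77.6% at day 10 and 73.3% at day 14, at 106 and 156 CPM. At day 14 *Ltbp3* still led in Cnmd-high cells with 48.8% and in Col10a1-high cells with 69.6%. The lead was narrow in the remaining groups, with *Ltbp3* at 34.9% and *Ltbp1* at 34.0% in Aspn-high cells and *Ltbp1* at 42.6% and *Ltbp3* at 41.7% in Ifitm5-high cells. Markers of tendon cells moved with the Aspn-high group. *Scx*, *Tnmd* and *Mkx* summed to 581 and 618 CPM there and to 8.77 to 71.2 CPM in the other 4 groups on the 2 days, and their part in these results was not tested.

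The promoters of the genes at either end of the contrast were read as well. The 250 bases before the start site are shown for *Tgfb1*, the one member that was at least 2-fold higher outside Aspn-high cells, and for *Ltbp2*, the member with the largest ratio at day 10. They come from RefSeq on GRCm38.p6 and read 5′ to 3′ on the strand of the gene, with matches to the GC box (GGGCGG, or CCGCCC on the other strand) in capitals.
*Tgfb1* promoter, chr7:25686752-25687001 (+), 5 GC boxes and 75.2% G or C: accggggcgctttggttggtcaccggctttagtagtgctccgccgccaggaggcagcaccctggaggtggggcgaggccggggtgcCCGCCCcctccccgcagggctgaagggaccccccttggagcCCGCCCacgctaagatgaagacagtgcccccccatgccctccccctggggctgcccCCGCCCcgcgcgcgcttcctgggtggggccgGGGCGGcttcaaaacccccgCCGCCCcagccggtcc
*Ltbp2* promoter, chr12:84876492-84876741 (-), 2 GC boxes and 61.6% G or C: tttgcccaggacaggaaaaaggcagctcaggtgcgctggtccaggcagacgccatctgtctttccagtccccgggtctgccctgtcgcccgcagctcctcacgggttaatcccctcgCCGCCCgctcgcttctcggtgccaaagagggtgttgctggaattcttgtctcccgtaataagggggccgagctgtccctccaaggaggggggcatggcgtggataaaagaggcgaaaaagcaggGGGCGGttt
A GC box was present in 32.7% of 32851 such windows. The letters CAGACA of a Smad site (17.1% of windows), TGTGGT of a Runx site (14.0%) and CATTCC of a Tead site (12.6%) were in neither of the 2 on either strand. Entries existed for 8 of the 10 genes, *Tgfb3* and *Tgfbr3* having none, and the Smad letters occurred once for *Tgfb2*, 2 times in an alternative start of *Ltbp1* and once in an alternative start of *Tgfbr1*.

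*Tgfbr2* (chromosome 9, 116084293 to 116175360, minus strand), the type II receptor that binds ligand, stood at 88.3 CPM in Aspn-high and 81.8 CPM in Cnmd-high cells at day 10 and at 99.4 and 79.9 CPM at day 14. The log2 ratio of Cnmd-high to Aspn-high cells was -0.11 (95% CI, -0.19 to -0.03) at day 10 and changed sign to 0.24 with TMM scaling. The other groups were lower, at 35.3 CPM in Col10a1-high, 26.0 CPM in Ifitm5-high and 32.9 CPM in Rgs5-high cells of day 10. At day 14 they held 36.0, 27.1 and 46.1 CPM. *Tgfbr2* was 2.50-fold lower in Col10a1-high than in Aspn-high cells at day 10 (log2 ratio -1.32; 95% CI, -1.51 to -1.14). Aspn-high and Cnmd-high cells therefore made up the high end, and Col10a1-high, Rgs5-high and Ifitm5-high cells the low end.

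*Tgfbr1* (chromosome 4, 47353222 to 47414931, plus strand), the type I receptor, lay between 20.7 and 25.2 CPM in Aspn-high, Ifitm5-high and Rgs5-high cells, apart from 33.2 CPM in Rgs5-high cells of day 14, and at 22.0 and 16.0 CPM in Col10a1-high cells. Cnmd-high cells were lowest, at 12.003 and 10.3 CPM. Their ratio to Aspn-high cells sat on the 2-fold line, 1.99-fold lower and just outside it at day 10 and 2.01-fold lower and just inside it at day 14. The log2 ratio of day 14 lay between -0.97 and -0.66 in 7 of the alternative settings. *Tgfbr3* (chromosome 5, 107106570 to 107289629, minus strand) stood at 23.9 and 24.4 CPM in Aspn-high, 11.96 and 10.9 CPM in Cnmd-high, 10.7 and 12.6 CPM in Col10a1-high, and 6.58 and 10.7 CPM in Rgs5-high cells. Ifitm5-high cells held 1.96 CPM on 4 UMIs at day 10 and 2.11 CPM on 11 UMIs at day 14, and were 12.2-fold lower than Aspn-high cells at day 10 (log2 ratio -3.61; 95% CI, -5.49 to -2.24). That log2 ratio became -2.47 without the upper limit on genes and -2.39 without any limits on cells.

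**Figure D3:**
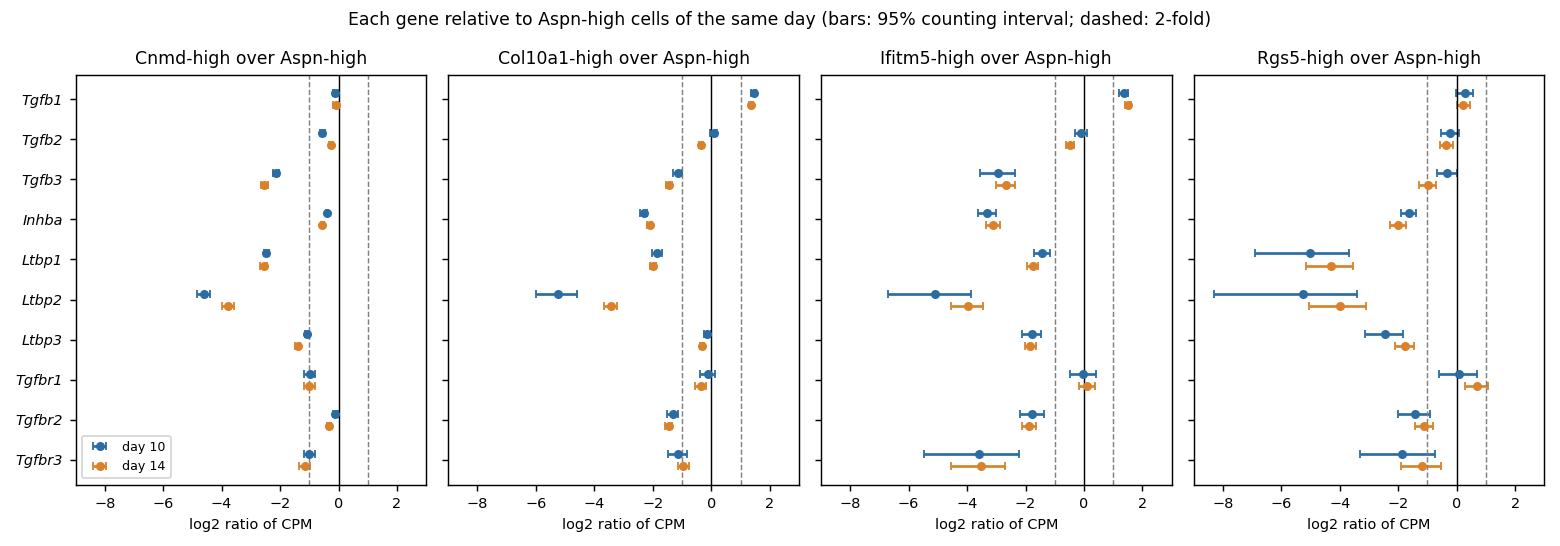
Log2 ratio of each gene in Cnmd-high, Col10a1-high, Ifitm5-high and Rgs5-high cells to Aspn-high cells of the same library, with exact binomial 95% intervals, for day 10 (blue) and day 14 (orange). Dashed lines mark 2-fold. *Tgfb1* lies to the right of the upper line in Col10a1-high and Ifitm5-high cells, and *Ltbp2* lies furthest to the left in every panel at day 10, as at -5.25 in Col10a1-high cells.

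Cells high for both *Cnmd* and *Col10a1* and for no other marker, 122 at day 10 and 111 at day 14, lay between the cartilage groups for *Tgfb1*, *Tgfb3* and *Inhba* on both days. Their *Tgfb1* was 146 CPM (95% CI, 132 to 162) at day 10, against 82.1 CPM in Cnmd-high and 242 CPM in Col10a1-high cells, and 131 CPM at day 14 between 73.7 and 202 CPM. Their *Inhba* was 203 CPM at day 10, between 309 and 82.2 CPM, and 73.3 CPM at day 14, close to the 62.5 CPM of Col10a1-high cells. *Tgfb3* was 34.6 CPM at day 10, between 21.9 and 43.8 CPM, and 37.5 CPM at day 14, between 18.7 and 40.0 CPM. *Tgfb2* was 104 CPM at day 10, between 83.3 and 129 CPM, and 116 CPM at day 14, above both groups (101 CPM in Cnmd-high and 95.4 CPM in Col10a1-high cells). By its point values *Tgfbr2* did not lie between. It was 28.8 CPM at day 10 and 31.2 CPM at day 14, near the Col10a1-high level and 2.84-fold lower than in Cnmd-high cells at day 10 (log2 ratio -1.51; 95% CI, -1.86 to -1.17). *Ltbp3*, at 40.1 and 53.1 CPM, was under both groups at both days by point values. *Ltbp1*, at 15.6 and 20.2 CPM, was under both in the same sense. Cnmd-high cells of day 14 held 56.8 CPM (95% CI, 54.3 to 59.5) of *Ltbp3* and 24.7 CPM (95% CI, 23.0 to 26.5) of *Ltbp1*. The median depth of the cells high for both markers was 22181.5 and 24194 UMIs, against 19309 and 20989 in Cnmd-high and 17438 and 16924 in Col10a1-high cells. No doublet caller was run, and the part of droplets with more than 1 cell was not tested.

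The Aspn-high cells were divided by *Acta2*, a gene of contractile cells, and by the growth factor gene *Igf1*, each at 500 CPM or more. *Tgfb1* and *Tgfb2* were lower in the cells with *Igf1* alone. At day 10 *Tgfb1* was 92.7 CPM in 310 cells with *Acta2* alone, 64.9 CPM in 451 cells with *Igf1* alone, 66.4 CPM in 169 cells with both and 125 CPM in 356 cells with neither. At day 14 these values were 98.3, 64.2, 60.6 and 104 CPM, and the cells with *Igf1*, with or without *Acta2*, were again the lower ones. *Tgfb2* in the same cells was 135, 87.9, 98.2 and 163 CPM at day 10 and 144, 93.7, 104 and 164 CPM at day 14. *Ltbp3* and *Tgfbr2* had the opposite order, with *Ltbp3* at 184 CPM in cells with *Igf1* alone and 88.6 CPM in cells with *Acta2* alone at day 10, a log2 difference of -1.05 (95% CI, -1.21 to -0.90) for *Acta2* over *Igf1*. *Tgfbr2* was 113 and 74.9 CPM in these cells. *Tgfb3* stayed between 88.6 and 103 CPM in all 4 at day 10. *Ltbp2* turned with the day, being 1.30-fold lower in cells with *Acta2* alone than with *Igf1* alone at day 10 and 1.41-fold higher at day 14.

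The 4 lists of pathway genes were read beside the 10. Of the 21 genes that activate or store latent TGF-β, 16 passed the filter in Cnmd-high against Aspn-high cells of day 10, with 1 at least 2-fold higher (*Tgm2*) and 9 lower. Those lower included *Mmp14* at 133 against 1332 CPM and the fibrillin genes *Fbn1* at 75.7 against 326 CPM and *Fbn2* at 35.8 against 274 CPM. In Col10a1-high cells 2 were higher and 11 lower of 17, and in Ifitm5-high cells 0 and 7 of 16. The integrin subunit gene *Itgb3* was at 55.2 against 8.46 CPM and the protease gene *Mmp9* at 146 against 2.63 CPM in Col10a1-high cells. The osteoclast markers *Acp5*, *Ocstamp* and *Atp6v0d2* were at 6.11, 0.244 and 0 CPM there, and *Mmp9*, the remaining gene of that list, made up most of its summed 152 CPM. Rgs5-high cells had 7 higher and 4 lower of 18, with *Fbn1* at 738 CPM and *Lrrc32*, which encodes the cell-surface TGF-β anchor GARP, at 96.5 against 1.91 CPM. At day 14 *Lrrc32* was at 45.0 against 5.22 CPM, and of 19 genes past the filter the higher and lower counts were 0 and 9 in Cnmd-high, 2 and 12 in Col10a1-high, 1 and 8 in Ifitm5-high, and 5 and 5 in Rgs5-high cells. Over all genes, the shares at least 2-fold apart in this order of groups were 22%, 28.6%, 25.5% and 25.5% at day 10. They were 22.5%, 27.9%, 25% and 25.2% at day 14. Endothelial markers were at a summed 61.4 CPM in Rgs5-high cells of day 10 and at most 5.37 CPM in the other 4 groups, and their part in this was not tested.

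Of 11 genes of the Smad route, 2 were higher and 0 lower in Cnmd-high cells of day 10, 4 and 1 in Col10a1-high, 0 and 2 in Ifitm5-high, and 1 and 1 in Rgs5-high cells. Beside the shares of all genes at least 2-fold apart (22%, 28.6%, 25.5% and 25.5%), these counts were above the background in Col10a1-high cells and slightly under it in the other 3 groups. *Smad7*, the inhibitory Smad that TGF-β itself induces, was at 59.7 CPM in Aspn-high, 210 CPM in Cnmd-high and 270 CPM in Col10a1-high cells, and at 45.9, 160 and 180 CPM at day 14. Of 10 induced genes, 5 were lower and 0 higher in Cnmd-high cells of day 10, and 5 lower and 3 higher in Col10a1-high cells. *Tgfbi*, an adhesion protein of the matrix, was at 403 CPM in Aspn-high and 27.6 CPM in Col10a1-high cells, while *Ccn2* was at 580 and 1241 CPM. Ifitm5-high cells had 1 higher (*Col1a1*) and 5 lower, and Rgs5-high cells had 1 higher and 6 lower. At day 14 the induced genes gave 1 higher and 5 lower in Cnmd-high, 3 and 6 in Col10a1-high, 1 and 4 in Ifitm5-high, and 1 and 6 in Rgs5-high cells, and the Smad route 1 and 2, 4 and 1, 0 and 1, and 2 and 0, beside 22.5%, 27.9%, 25% and 25.2% of all genes. At day 10 the median log2 ratio of the induced genes was -0.84, -0.98, -0.86 and -1.15 in the 4 groups, beside the medians of all genes given above.

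Between day 10 and day 14 the levels changed little. At least 2-fold apart were 0 of the 10 genes in Aspn-high cells (2.1% of all genes), 0 of 10 in Cnmd-high cells (1.5%), and 1 of 10 in Col10a1-high cells (1.89%). Of the genes that passed the filter, it was 1 of 9 in Ifitm5-high (4.69%) and 0 of 8 in Rgs5-high cells (6.58%). The gene apart was *Ltbp2* in both cases, and in Rgs5-high cells *Ltbp2*, with 2 and 10 UMIs, did not pass the filter and was the 1 gene apart without it. *Ltbp2* was 2.20 CPM at day 10 (18 UMIs) and 7.74 CPM at day 14 (183 UMIs) in Col10a1-high cells, a log2 ratio of 1.82 (95% CI, 1.11 to 2.60) that became 0.68 when cells were thinned. The ratio was 1.13 (95% CI, -0.26 to 2.86) in Ifitm5-high and 1.29 (95% CI, -0.94 to 4.52) in Rgs5-high cells, so that both intervals held 0. *Aspn* moved in the same direction in Col10a1-high cells, from 28.1 to 83.5 CPM, and in Ifitm5-high cells, from 68.6 to 101 CPM, and its part in the result was not tested. In Rgs5-high cells *Aspn* was 845 and 826 CPM.

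*Inhba* was lower at day 14 than at day 10 in all 5 groups, without reaching 2-fold in any. The log2 ratio was -0.61 (95% CI, -0.65 to -0.56) in Aspn-high, -0.77 (95% CI, -0.81 to -0.72) in Cnmd-high, -0.40 in Col10a1-high, -0.41 in Ifitm5-high and -0.97 (95% CI, -1.35 to -0.60) in Rgs5-high cells. In Cnmd-high cells the share of cells with a UMI at their own depth was 63.4% at day 10 and 65.4% at day 14, and in thinned cells it was 26.0% and 22.3%. Over all genes the median ratio lay between -0.11 and 0.02. The log2 ratio of *Tgfb1* lay between -0.26 and -0.02, and that of *Tgfb2* was 0.28 in Cnmd-high and -0.43 in Col10a1-high cells. Of the 4 pathway lists, *Ccn2* of the induced genes was at least 2-fold lower at day 14 in Aspn-high cells, at 199 against 580 CPM, and it was 666 against 757 CPM in Cnmd-high cells.

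**Figure D4:**
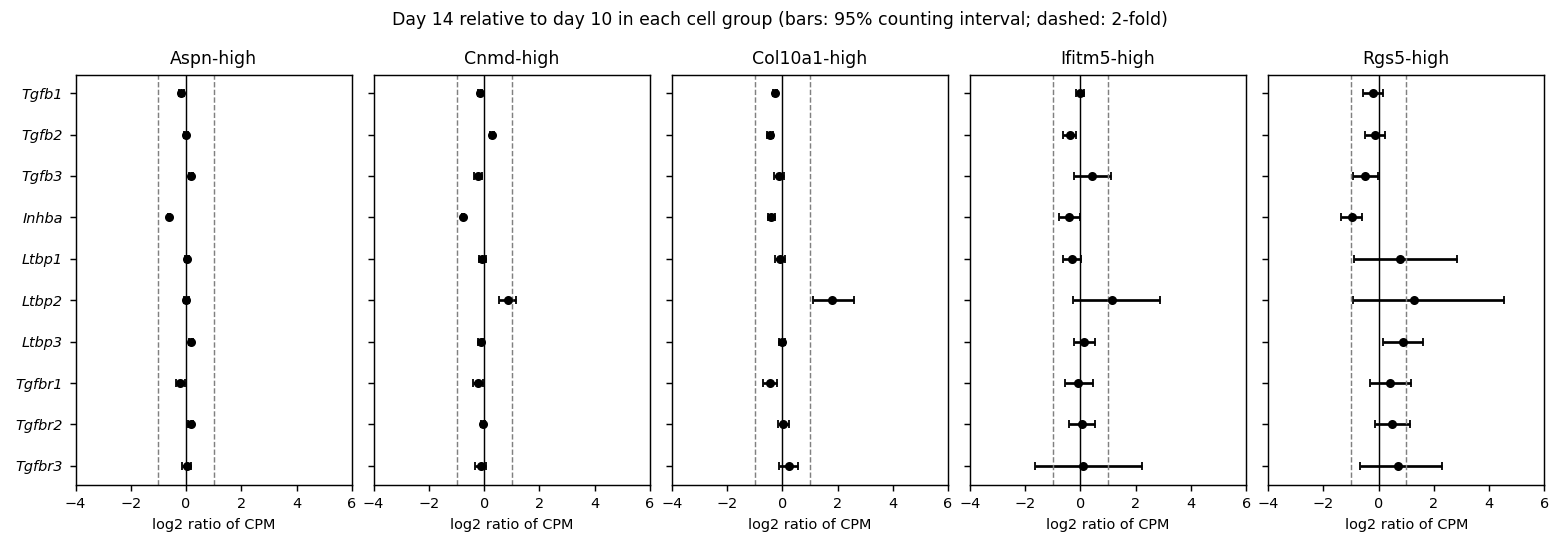
Log2 ratio of day 14 to day 10 for each gene in the 5 groups, with exact binomial 95% intervals. Dashed lines mark 2-fold. *Inhba* lies to the left of 0 in all 5 groups, from -0.40 in Col10a1-high to -0.97 in Rgs5-high cells, and *Ltbp2* reaches 1.82 in Col10a1-high cells.

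At day 7 the skeletal cells were few. In 56 Cnmd-high cells *Tgfb1* was 83.4 CPM (95% CI, 67.5 to 102), *Tgfb2* 117 CPM, *Tgfb3* 27.8 CPM and *Tgfbr2* 89.4 CPM, and *Inhba* was 166 CPM (95% CI, 143 to 191). In 13 Aspn-high cells *Tgfb3* was 175 CPM and *Ltbp2* 114 CPM, and in 7 Col10a1-high cells *Tgfb1* was 356 CPM. The 6 Ifitm5-high cells held 329 CPM of *Tgfb1* and no UMI of *Tgfb3*. Neutrophil genes summed to 1419 to 1923 CPM in these day 7 groups, against 0.490 to 52.8 CPM at day 10. At day 14 they summed to 24.1 CPM in Rgs5-high to 245 CPM in Col10a1-high cells, with 206 CPM in Aspn-high cells. Their part in the levels was not tested.

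The 6570 Ptprc-positive cells of day 7 had a different set of the 10 genes. *Tgfb1* was 77.2 CPM (95% CI, 74.8 to 79.7) and made up 92.5% of the ligand UMIs, with *Tgfb2* at 4.79 CPM and *Tgfb3* at 1.5 CPM. *Ltbp1*, *Ltbp2*, *Ltbp3* and *Tgfbr3* lay between 1.2 and 3.4 CPM, where chondrocyte genes summed to 567 CPM in the same cells. The 3 latency genes had 300 UMIs here. Of these, 178 lay in 292 cells outside the *Cd79a*, *Csf1r* and neutrophil-gene sets given below, at a summed 57.8 CPM. The sum was 0.659 CPM in cells with *Cd79a*, 2.63 CPM in cells with *Csf1r* and 2.65 CPM in cells with neutrophil genes. *Tgfbr1* was 27.6 CPM and *Tgfbr2* 22.3 CPM. *Tgfb1* was highest in 177 cells with *Cd79a*, a gene of B cells, at 233 CPM (95% CI, 209 to 259), against 112 CPM in 1192 cells with *Csf1r*, a gene of monocytes and macrophages, and 57.1 CPM in 4909 cells with neutrophil genes. Its share of thinned cells was 41.7% in the first and 12.1% over all Ptprc-positive cells.

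Among the *Cd79a*, *Csf1r* and neutrophil-gene sets, and leaving out the other 292 Ptprc-positive cells, *Inhba* had the reverse order. It stood at 5.93 CPM in cells with *Cd79a*, 59.4 CPM in cells with *Csf1r* and 135 CPM (95% CI, 132 to 139) in cells with neutrophil genes. Within the last, cells with at least 2% of their UMIs from the granule genes *Ngp*, *Camp* and *Ltf* held 185 CPM (2114 cells) and those below it 17.3 CPM (2795 cells), a split chosen after its values were seen. *Tgfbr2* ran the other way there, at 9.33 and 40.0 CPM, and *Tgfb1* was 56.7 and 58.0 CPM. The granule-rich cells had a median of 9130 UMIs and the others 3522 UMIs. In thinned cells *Inhba* was present in 10.2% of all Ptprc-positive cells and in 0.571% (1 of 175) of those with *Cd79a*.

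**Figure D5:**
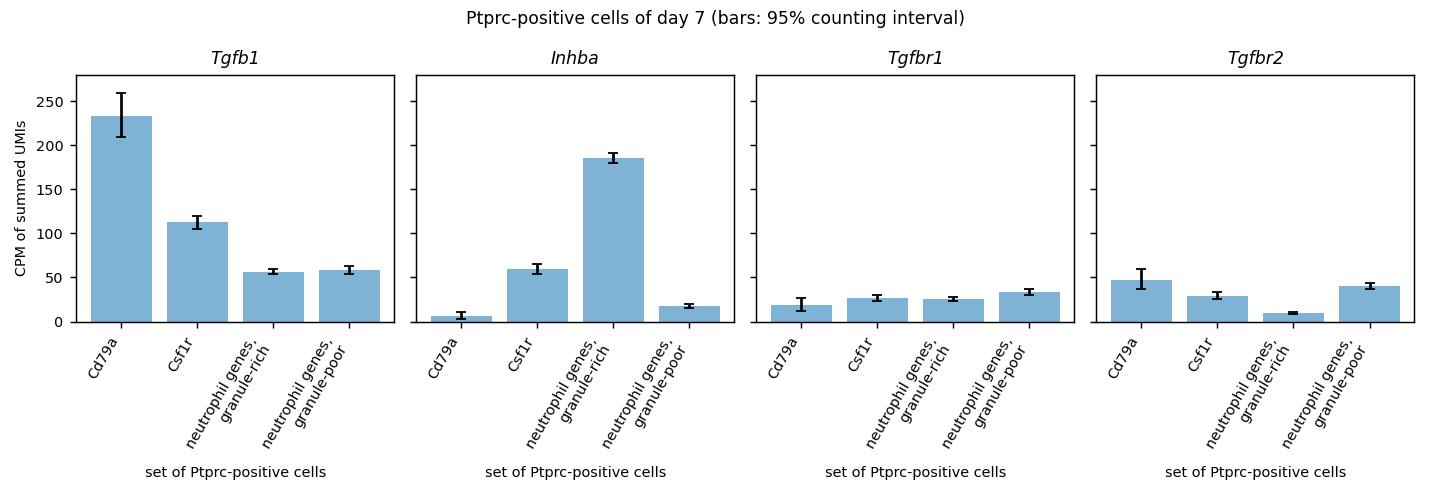
Level (CPM, axis from 0) of *Tgfb1*, *Inhba*, *Tgfbr1* and *Tgfbr2* in Ptprc-positive cells of day 7 with *Cd79a*, with *Csf1r*, and with neutrophil genes, the last divided into granule-rich and granule-poor cells. Columns are levels and bars exact Poisson 95% intervals. *Tgfb1* is highest in cells with *Cd79a*, at 233 CPM, and *Inhba* in granule-rich cells, at 185 CPM.

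Across the 13 groups of at least 50 cells in 1 library, the genes whose log2(CPM + 10) followed a member most closely, among 8338 genes, were *Snx30* for *Tgfb1* (Pearson r = 0.945), *Slc25a17* for *Tgfb2* (0.985), *Vangl1* for *Tgfb3* (0.959) and *Rnf41* for *Inhba* (0.9004). For the latency genes they were *Dchs1* for *Ltbp1* (0.977), *Hmcn1* for *Ltbp2* (0.968) and *Mdk* for *Ltbp3* (0.975). For the receptors they were *Adam10* for *Tgfbr1* (0.961) and *Il11ra1* for *Tgfbr3* (0.940). Among the members, *Tgfb1* and *Inhba* had an r of -0.69, *Inhba* and *Tgfbr2* 0.81, and *Ltbp1* and *Ltbp3* 0.80. These values describe 13 points that share 3 libraries and their depth, and they carry no test. They cover blood cells beside skeletal groups, and they include the Cnmd-high (56 cells) and Ptprc-positive (6570 cells) points of day 7. The part of the day 7 points and of the Ptprc-positive points in these values was not tested.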

How the data were processed

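Single-cell UMI counts from 3 callus libraries (day 7, day 10 and day 14, 1 each) were used as deposited. The authors deposited whole UMI counts per gene and barcode, without normalization, on mm10. The submitters' processing notes name Cell Ranger 3.0, the matrix headers give 3.1.0, and the library chemistry is named differently in the labels and the methods of the study. Libraries held 9103, 8801 and 12984 barcodes. Cells within the limits held 55187609, 113618580 and 154573230 UMIs.

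UMIs were summed per group and library in Python 3.11.15 (numpy 2.4.6, scipy 1.17.1, pandas 2.3.3), and figures were drawn with matplotlib 3.10.9. A ratio was called apart at 2-fold. Cells high for 2 or more markers (304 at day 10, 292 at day 14) stayed out of the 5 groups. For shares of cells with a UMI, every cell was thinned to 2000 UMIs and shallower cells were left out. The ratio, its interval and the 2-fold count were tested on simulated Poisson counts with known folds beyond 2-fold. That simulation left out the bunching of UMIs between cells and did not cover grouping, thinning or make-up. Alternatives were other thresholds, limits and scalings, among them TMM from edgeR 4.0.16 in R 4.3.3.

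All 10 members were named in every group. Of the pathway lists, the text named genes from the 3 largest ratios in each direction among genes at 20 CPM or more, and *Fst*, *Fbn1*, *Ltbp4* and *Ccn2* also where they were not among these. The members and lists were chosen with earlier results of these data known. Neutrophil-gene cells had 2% or more of their UMIs from 5 genes, cells with *Cd79a* 2 UMIs or more, and cells with *Csf1r* 1 or more. Gene positions come from GENCODE M21, and promoters from RefSeq. Some single-gene values are not reported here.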

Additional observations from a re-analysis of the deposited data

Results flagged for a closer look

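The 3 members named here had log2 ratios of day 14 to day 10 whose intervals lay on opposite sides of 0 in a pair of groups. Each day was 1 library, so the difference was not tested in any of them. *Tgfb2* had a ratio of 0.28 in Cnmd-high and -0.43 in Col10a1-high cells, a difference of 0.71, as its level went from 83.3 to 101 CPM in the first and from 129 to 95.4 CPM in the second. *Tgfb3* had a ratio of 0.17 in Aspn-high and -0.50 in Rgs5-high cells, a difference of 0.66, with 71 UMIs behind the Rgs5-high value of day 10. *Ltbp3* had a ratio of 0.87 in Rgs5-high and -0.13 in Cnmd-high cells, a difference of 0.997, with 22 and 82 UMIs behind the Rgs5-high values.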

How the results depend on the processing

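No paired analysis was possible because each day had 1 library, and no replicate could be left out. Of 54 ratios that were at least 2-fold, 52 kept it with marker thresholds halved, 52 of 53 with thresholds doubled, 53 with cells kept in every group they were high for, 52 without the upper limit on genes or without any limits, 54 without cells with neutrophil genes, 47 of 51 in thinned cells, 51 with the mean of single-cell CPM, 51 with TMM and 49 with median-of-ratios scaling. No ratio of 2-fold or more changed sign. TMM moved ratios by at most 0.35 on the log2 scale and median-of-ratios by at most 0.39, and each turned the sign of 14 of 130 ratios, all of them small. Of the 10 genes, the number at least 2-fold apart from Aspn-high cells at day 10 went in Cnmd-high cells from 4 to 6 in thinned cells and with the mean of single-cell CPM and to 3 with either scaling, in Col10a1-high cells from 7 to 5 with median-of-ratios, and in Ifitm5-high cells from 8 to 6 in thinned cells. At day 14 the Cnmd-high number went from 6 to 4 with either scaling, and every other number moved by at most 1 except at 1.5-fold, where it was 6 in Cnmd-high cells of day 10 and 8 in Rgs5-high cells of day 14. Between days at 1.5-fold the numbers were 1 in Aspn-high, 2 in Cnmd-high and 5 in Rgs5-high cells. At 2-fold between days, the Cnmd-high count was 1 with thresholds halved and 1 in thinned cells, and the Col10a1-high count was 0 in thinned cells. The Ifitm5-high count was 0 with thresholds doubled, without the upper limit, without any limits and with the mean of single-cell CPM. The Rgs5-high count was 3 with thresholds doubled and 3 with cells kept in every group, and 2 without the upper limit, without any limits, in thinned cells and with the mean of single-cell CPM. The cause was not tested. In the 70 Rgs5-high cells of day 10, *Ltbp1*, *Ltbp2* and *Tgfbr3* rested on 4, 2 and 6 UMIs. In the 115 Ifitm5-high cells of day 10, *Ltbp2* and *Tgfbr3* rested on 5 and 4 UMIs, and *Ltbp1* on 109.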

Other observations

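Cells high for none of the 5 markers, 1742 at day 10 and 2881 at day 14, held more *Tgfb1* and *Tgfb2* than Aspn-high cells on both days. *Tgfb1* was 151 and 145 CPM there, 1.70-fold and 1.83-fold higher than in Aspn-high cells, and *Tgfb2* was 1.67-fold and 1.42-fold higher. *Inhba* was 435 and 242 CPM, beside 409 and 269 CPM in Aspn-high cells. *Tgfb3* was 2.14-fold and 2.34-fold lower and *Ltbp1* 1.87-fold and 2.36-fold lower than in Aspn-high cells. These cells had *Ibsp* at 26434 and 19695 CPM, *Col1a1* at 17982 and 14156 CPM and *Col2a1* at 15594 and 11472 CPM, and they were not named as a cell type.

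Transcripts of one group were seen at low levels in others. A UMI of *Col10a1* was present in 53.7% of Aspn-high cells of day 10 and 75.1% of day 14, at a median of 44.1 and 97.2 CPM per cell, against a median of 25383 and 19107 CPM per cell in Col10a1-high cells. At day 10 the levels of *Ltbp2* in Cnmd-, Col10a1-, Ifitm5- and Rgs5-high cells were at most 3.42 CPM.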
